A study of Mus musculus with 6 samples.

Results

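DNA methylation was examined at 6 genes that mark the connective tissue and muscle beneath the gut epithelium: Col1a1, Col1a2, Pdgfrb and Twist1 for fibroblasts and related mesenchyme, and Acta2 and Myh11 for smooth muscle. All captured regions overlapping a window of the gene plus about 3 kb on each side were taken, whatever their methylation. This gave 44 of the 209687 regions in the data, of which 37 had a value in all 6 samples, against 179922 regions in the whole data set. The samples were epithelial scrapings of the colon of C57BL/6 mice aged 18 weeks, 2 samples in each of 3 groups. One group is labelled control. Another was induced with AOM and DSS. These short forms usually stand for azoxymethane, which starts colon tumours in mice, and dextran sulfate sodium, which inflames the gut lining. The third had AOM and DSS plus curcumin, a polyphenol of turmeric, so that both treated groups share AOM and DSS and differ in curcumin. Doses and times of treatment are not given in the labels. Per the labels, the proximal segment and tumours of the right colon were cut away before scraping, and the scrapings were washed at low speed against blood cells. The labels do not state whether the 2 samples of a group are different animals or pools, and the p-values below reflect the variation between the deposited samples alone.

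Cytosines followed by guanine (CpG) in mammalian DNA are mostly methylated, except in CpG-dense stretches at the starts of many genes, which stay free of methylation whether or not the gene is active. At CpG-poor gene starts and enhancers, methylation tends to be lower in the cell types that use the gene. Col1a1 and Col1a2 encode the chains of type I collagen, the main fibre of connective tissue. Pdgfrb is the receptor for platelet-derived growth factor on fibroblasts and pericytes, and Twist1 is a transcription factor of mesenchymal cells. Acta2 and Myh11 encode an actin and a myosin heavy chain of smooth muscle, and Acta2 is also made by myofibroblasts. A level in a scraping is an average over cells and alleles, so a partly methylated region may reflect a mixture of cells or partial methylation within one kind of cell, and the data cannot tell these apart. Epithelial and leukocyte marker genes were not located here.

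The promoters of 3 of the 6 genes were available from RefSeq and are shown because their CpG content frames the levels that follow. Each line holds the 250 bases upstream of the transcription start, 5′ to 3′ on the gene's strand, from build GRCm38.p6, with each CG in capitals. The Twist1 stretch is chr12:33957421-33957670 on the plus strand, that of Col1a2 is chr6:4505368-4505617 on the plus strand, and that of Acta2 is chr19:34255374-34255623 on the minus strand.
Twist1: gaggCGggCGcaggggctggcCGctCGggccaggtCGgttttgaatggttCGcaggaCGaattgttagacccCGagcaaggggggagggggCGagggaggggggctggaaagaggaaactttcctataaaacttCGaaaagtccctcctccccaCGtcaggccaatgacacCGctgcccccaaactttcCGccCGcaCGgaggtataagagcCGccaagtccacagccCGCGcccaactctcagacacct
Col1a2: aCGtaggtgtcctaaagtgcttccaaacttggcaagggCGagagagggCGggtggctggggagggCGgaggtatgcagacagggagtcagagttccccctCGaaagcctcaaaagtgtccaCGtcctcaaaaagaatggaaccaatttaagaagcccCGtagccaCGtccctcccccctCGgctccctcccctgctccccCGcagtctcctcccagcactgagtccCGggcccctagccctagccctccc
Acta2: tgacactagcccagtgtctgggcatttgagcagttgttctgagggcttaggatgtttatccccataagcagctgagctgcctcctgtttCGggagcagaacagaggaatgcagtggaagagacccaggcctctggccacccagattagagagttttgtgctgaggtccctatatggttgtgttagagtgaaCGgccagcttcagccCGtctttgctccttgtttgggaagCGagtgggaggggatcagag
Twist1 has 18 CG, and 21.7% of 32851 promoters in the table have at least as many in these 250 bases. Col1a2 has 11, which 35.6% of promoters reach, and Acta2 has 4, which 62.2% reach, against a median of 6. CG reads the same on both strands, so 1 count covers both. The methylation files use build mm9, so these stretches were not overlaid base by base on the captured regions.

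Positions below are distances in kb from the upstream edge of each mm9 window, and the gene's start lies about 3 kb inside that edge. The starts themselves were not located in mm9. Regions in the first 6 kb are called near the gene's start, or for short start regions or regions at the start. This limit was set after the levels were seen, so the contrast that follows is a description only. Twist1 has no region with all values beyond it. Of the 16 such regions with all 6 values, 12 averaged under 10% methylated over the samples, compared with 3 of the 21 regions farther in. By gene, these were 3 of 3 near the start of Col1a1, 2 of 3 at Col1a2, 1 of 2 at Pdgfrb, 4 of 4 at Twist1, 2 of 2 at Myh11 and 0 of 2 at Acta2. Among all regions of the data set 36.4% averaged under 10%, and among the 37 members 40.5% did. Between 10 and 90% stood 20 of the 37 (54.1%), against 51.9% of all regions. Across the 37 regions the level was lower where there were more CpGs (Spearman rho -0.376), and the same held across all regions (rho -0.451). With CpGs per 100 bases instead of their number, the rho was weaker, at -0.226 for the 37 regions and -0.272 for all. These are descriptions over regions that share the same libraries.

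**Figure D1:**
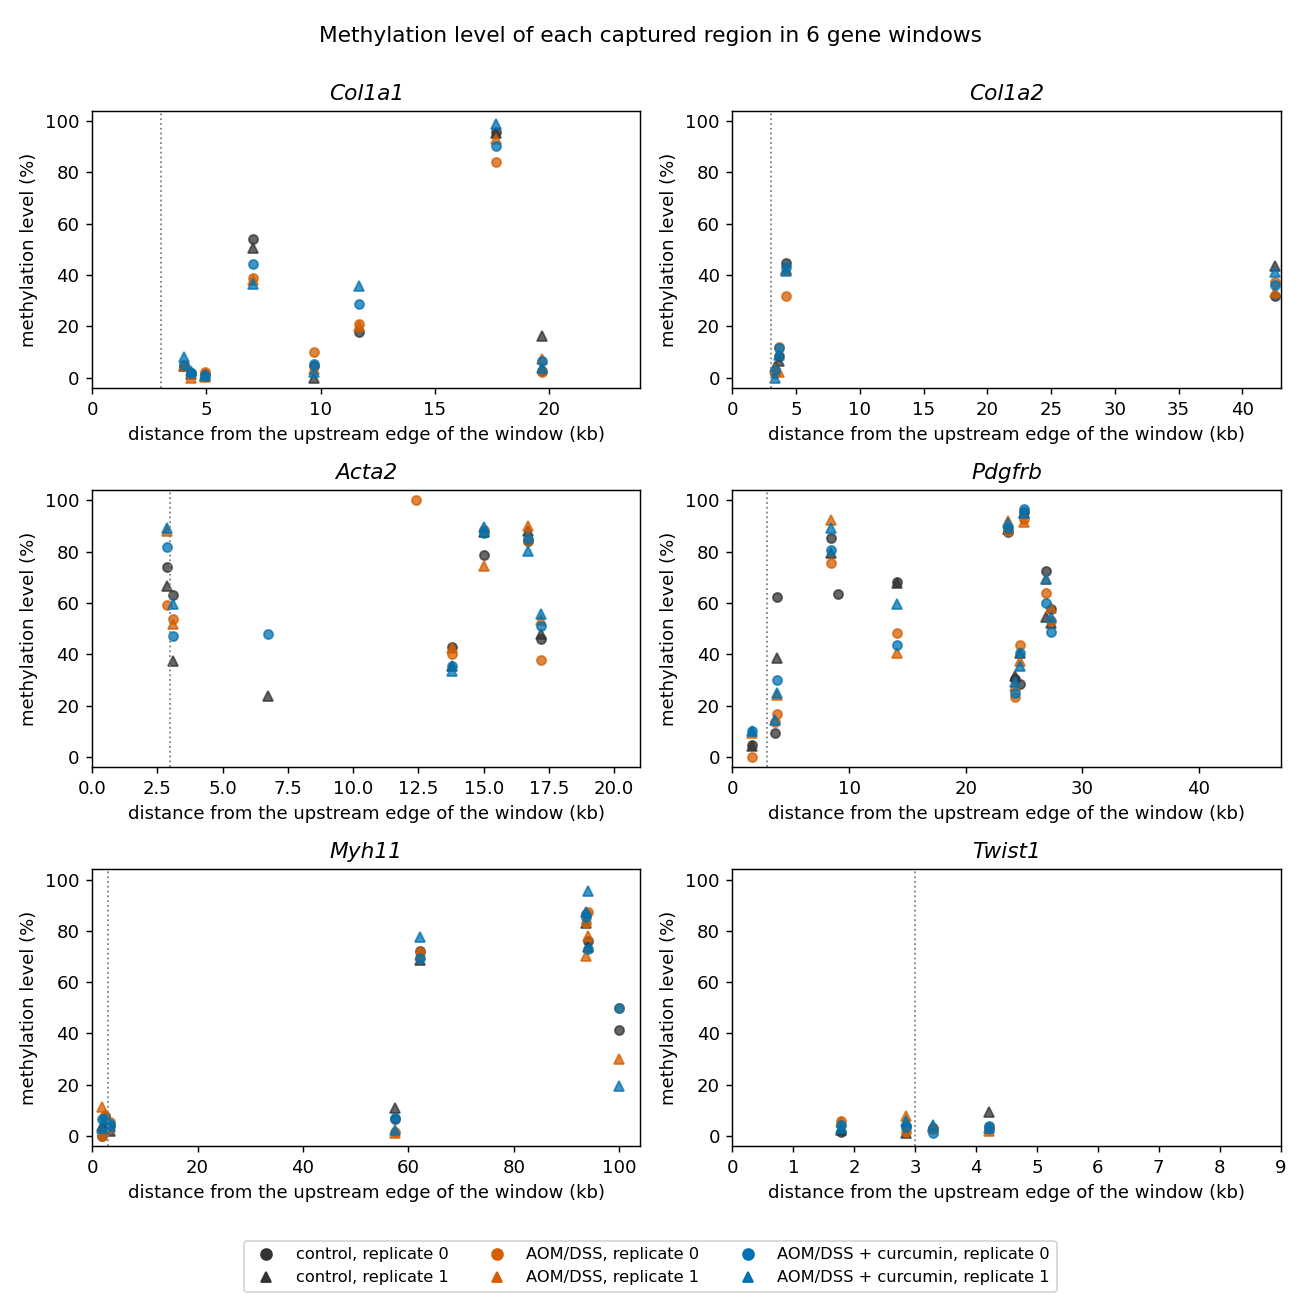
Methylation level (%) of every captured region against its distance in kb from the upstream edge of the window, 1 panel per gene. Points are single samples, coloured by group and shaped by replicate, and the dotted line marks 3 kb, about where the gene starts. Regions near the starts of Col1a1, Myh11 and Twist1 lie at or below 11.1% in every sample, those of Acta2 lie between 37.5% and 89.1%.

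Twist1 was low throughout. Its 4 regions, on chromosome 12, hold 16, 28, 33 and 26 CpGs, and their means over the 6 samples ran from 3.03% to 4.10%. The least methylated, chr12:34642290-34642620 at 3.29 kb, has 33 CpGs and stood at 2.92% and 3.33% in control, 2.82% and 3.52% in AOM/DSS, and 1.35% and 4.22% with curcumin, at 150 to 256 methylation calls per sample. These groups overlapped. The region chr12:34640778-34641128, upstream of the gene at 1.78 kb, stood at 1.47% and 2.33% in control, 5.71% and 5.26% in AOM/DSS, and 4.17% and 3.19% with curcumin. Both AOM/DSS samples were the highest of the 6 and both controls the lowest, but the difference of 3.59 points did not pass (adjusted p = 0.800 in edgeR's quasi-likelihood test). The most methylated, chr12:34643222-34643565, owed its position to control replicate 1 at 9.22%, with the other 5 samples between 2.04% and 3.74%.

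At Col1a1 the regions near the gene's start were low and those farther in were uneven. The 3 regions from 4.03 to 4.92 kb averaged 5.22%, 1.45% and 1.05%. In the middle one AOM/DSS replicate 1 had 0 methylated calls of 150, which allows a level of up to 2.00%. Farther in, chr11:94801026-94801447 at 7.03 kb was partly methylated at 43.8%, the next region with a full set of values was back at 4.25%, chr11:94811739-94811886 at 17.7 kb reached 93.0%, and the last, chr11:94813683-94813791, stood at 6.44%. One further region, chr11:94805693-94805716 with 3 CpGs, had no value in control replicate 1. Its levels were 17.8% in control replicate 0, 20.8% and 20% in AOM/DSS, and 28.6% and 35.7% with curcumin, at 21 to 45 calls.

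Col1a2 switched from unmethylated to partly methylated over a short distance near its start. The regions chr6:4455341-4455547 and chr6:4455648-4455889 averaged 2.42% and 8.25%, and 338 bases beyond the second, chr6:4456228-4456719 with 14 CpGs averaged 40.9%. That region stood at 44.7% and 42.3% in control, 31.9% and 41.9% in AOM/DSS, and 43.1% and 41.7% with curcumin. AOM/DSS replicate 0 was the low sample, while replicate 1 lay just under the lower control. The lone region at the far end, chr6:4494618-4494854, lies in the outer 3 kb downstream and averaged 37.3%. The capture held no other region over the 37898 bases between them.

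Pdgfrb had 12 regions, 10 of them with all 6 values, and covered nearly the whole range of levels. Upstream, where Gm52351 comes within 3 kb of the gene in the RefSeq annotation of GRCm38.p6, chr18:61202719-61202846 averaged 6.38%, and chr18:61225974-61226230 inside the gene averaged 94.4%. Around 24 kb, 4 regions separated by 138 to 156 bases alternated sharply: 89.5%, then 27.8% in chr18:61225168-61225560 with 21 CpGs, then 37.7%, then 94.4%. The dip was present in every sample, with 23.2% to 31.5% in the region of 21 CpGs at 310 to 375 calls. The region at the gene's start, chr18:61204860-61205225, had the widest range over the samples of all 37 and is described with the comparisons.

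Of the 2 muscle genes, Acta2 was the only one of the 6 without an unmethylated region among those with all values. The region at its start, chr19:34330023-34330131 with 3 CpGs, averaged 76.5%, and chr19:34329827-34329921 with 5 CpGs averaged 52.1%. In the first, levels were 74.1% and 66.7% in control, 59.2% and 88.1% in AOM/DSS, and 82.0% and 89.1% with curcumin, at 42 to 72 calls. The AOM/DSS samples lay on both sides of the controls. Within the gene, the lowest region, chr19:34319014-34319218 at 38.3%, and the highest, chr19:34316052-34316281 at 85.2%, both kept their level in all samples within 10 points. The last region, chr19:34315681-34315830 at 48.6%, lies toward Stambpl1, whose annotation comes within 3 kb of Acta2 in the RefSeq annotation of GRCm38.p6.

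Myh11 had low regions near its start and mostly methylated regions in its farther part. Its start region, chr16:14291379-14291688 with 16 CpGs, stood at 4.06% and 1.82% in control, 5.48% and 3.63% in AOM/DSS, and 4.59% and 3.74% with curcumin. After a gap of 53874 bases, chr16:14237494-14237504, a cluster of 3 CpGs in 11 bases, was also low at 4.92%. The next region averaged 71.7%, and chr16:14200997-14201158 and chr16:14200807-14200890, 106 bases apart around 94 kb, averaged 82.6% and 80.6%. The farthest region, chr16:14194691-14194808 with 4 CpGs, had no value in control replicate 1 and was partly methylated, at 41.4% in control replicate 0, 50% and 30% in AOM/DSS, and 50% and 19.4% with curcumin, at 26 to 36 calls. In GRCm38.p6 the annotation of Nde1 comes within 3 kb of this end of Myh11. Of the 7 regions over all windows that lacked a value in some sample, 2 were at Acta2, 2 at Myh11, 2 at Pdgfrb and 1 at Col1a1.

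The windows were cut by position alone, so the nearest captured regions outside show what the edges leave out. Just past the Col1a2 window, 0.019 kb away, a region averaged 90.9%, against 37.3% in the last one inside. Past the Twist1 window, 0.489 kb away, the level was 7.48% against 4.10% inside, and upstream of Pdgfrb, 1.34 kb away, it was 1.21% against 6.38%. Downstream of Col1a1, 1.12 kb away, the level was 26.8% against 6.44% inside. Upstream of Col1a1, 2.27 kb away, it was 88.0% against 5.22%. On the remaining sides the nearest region lay 3.13 to 316 kb away.

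**Figure D2:**
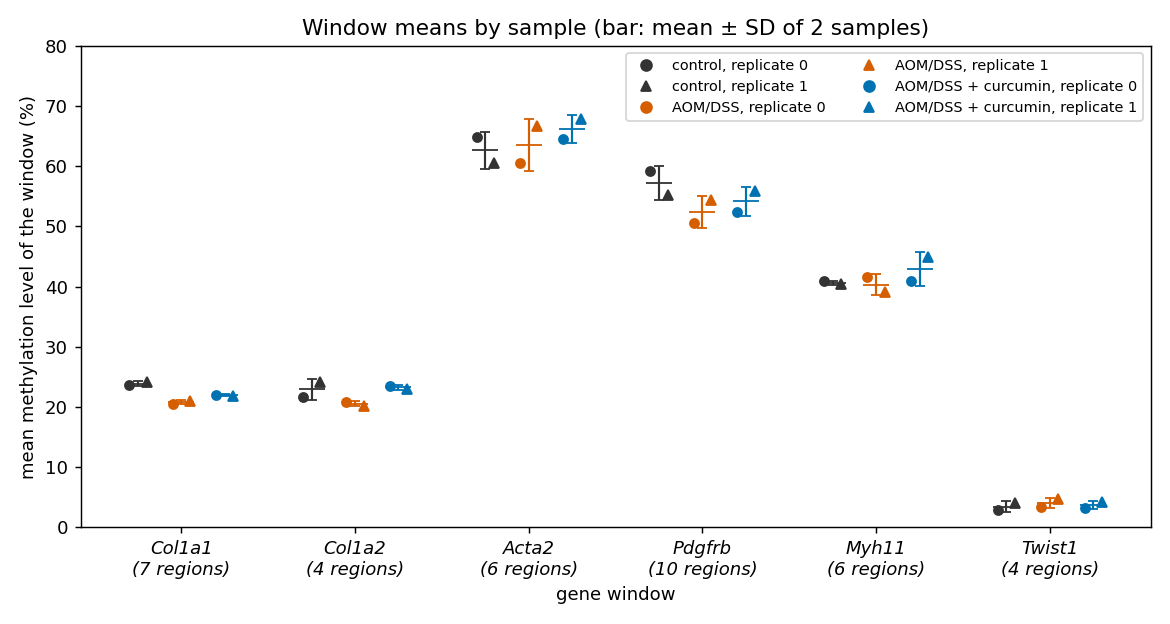
Mean methylation level (%) over the regions of each gene window, by group. Points are single samples, and bars are the mean ± SD of 2 samples. Acta2 and Pdgfrb are highest and Twist1 is lowest in all 3 groups, and the groups differ by a few points within a gene.

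Acta2, Pdgfrb and Myh11 kept this descending order of window means in all 3 groups, with Twist1 last, and only the collagen genes changed places, Col1a2 above Col1a1 with curcumin. In control Acta2 stood at 62.6% ± 3.07 (SD, n = 2), Pdgfrb at 57.3% ± 2.84, Myh11 at 40.6% ± 0.339, Col1a1 at 23.9% ± 0.376, Col1a2 at 22.9% ± 1.71 and Twist1 at 3.42% ± 0.897. Acta2 and Pdgfrb did not overlap in control, at 64.8% and 60.5% against 59.3% and 55.3%, while Col1a1 and Col1a2 did overlap, at 23.6% and 24.1% against 21.7% and 24.1%. The pair of windows most alike over the 6 samples was Col1a1 and Pdgfrb (Pearson r = 0.696, n = 6 libraries that share their groups, given as a description among 15 pairs).

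Whether AOM/DSS changed methylation at these genes was asked first. None of the 37 regions passed: 0 were called at an adjusted p under 0.05 with group means at least 10 points apart, where 0.00389% of all regions were. At an unadjusted p under 0.05 stood 4 regions (10.8%), all lower in AOM/DSS, against 6.34% of all regions in either direction and 3.62% in the lower one. Of these, 3 (8.11%) differed by at least 10 points, against 2.82% and, in the lower direction, 2.10% of all regions. No other member differed by 10 points, a distance that 8.48% of all regions reached and 5.96% reached on the lower side. Of the members, 17 were lower and 20 higher in AOM/DSS, against 54.3% and 45.3% of all regions. The median difference was 0.104 points, against -0.264 points over all regions. Groups did not overlap in 12 of 37 (32.4%), 10 lower and 2 higher, against 35.7% of all regions, 20.8% lower and 14.8% higher. The mean over the 37 regions was 39.6% ± 0.967 (SD, n = 2) in control, compared with 37.6% ± 1.24 in AOM/DSS, which lay -1.98 points from control. The same mean over all regions lay -0.899 points from control, from 41.2% ± 0.200 to 40.3% ± 0.192, likewise without overlap.

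The largest difference lay at the start of Pdgfrb. The region chr18:61204860-61205225 at 3.86 kb, with 9 CpGs, stood at 62.5% and 38.7% in control, 16.7% and 24.2% in AOM/DSS, and 30% and 25% with curcumin. Both controls lay above the other 4 samples, and the controls themselves were farther apart than any other pair of replicates at this region. The depth was low, with 24 to 56 calls per sample. The group means, 50.6% ± 16.8 (SD, n = 2) and 20.5% ± 5.36, differed by -30.2 points, with an unadjusted edgeR p of 0.00359 and an adjusted p of 0.658. Without control replicate 0 the difference was -18.3 points, with an unadjusted edgeR p of 0.142, and without control replicate 1 it was -42.0 points, with 0.000927 (adjusted p = 0.824 and 0.635 in edgeR). The neighbouring region upstream, with 3 CpGs and a value in 3 samples only, stood at 9.38% in control replicate 0, 13.6% in AOM/DSS replicate 0 and 14.3% in curcumin replicate 1. There the control was the lowest of the samples with a value. Each of these values rests on 3 methylated calls, out of 32, 22 and 21 calls in the same order.

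A second Pdgfrb region, chr18:61215075-61215139 at 14.1 kb with 4 CpGs, stood at 68.3% and 67.6% in control, 48.4% and 40.6% in AOM/DSS, and 43.8% and 59.5% with curcumin, at 32 to 64 calls. The difference of AOM/DSS from control was -23.4 points, with an unadjusted edgeR p of 0.0370 and an adjusted p of 0.773. When each sample was left out in turn, its unadjusted p ran from 0.0392 to 0.109. The 6 Pdgfrb regions beyond 20 kb differed by -5.50 to 6.06 points.

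The third was chr11:94801026-94801447 in Col1a1, the best covered of the 4 with 176 to 200 calls. It stood at 53.98% and 50.5% in control, 39.0% and 38.2% in AOM/DSS, and 44.5% and 36.4% with curcumin. Both controls lay above the other 4 samples, and the difference was -13.6 points, with an unadjusted edgeR p of 0.0443 (adjusted p = 0.782). Whichever sample was dropped, the unadjusted p passed 0.05, running from 0.0509 to 0.131. The fourth, at Myh11 57.5 kb in, stood at 6.45% and 10.9% in control, 1.72% and 1.12% in AOM/DSS, and 7.14% and 2.22% with curcumin, at a difference of -7.24 points with an unadjusted edgeR p of 0.0206 (adjusted p = 0.730). The AOM/DSS values there rest on 1 methylated call in each sample, out of 58 and 89. Dropping a sample moved its unadjusted p to between 0.0214 and 0.117.

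**Figure D3:**
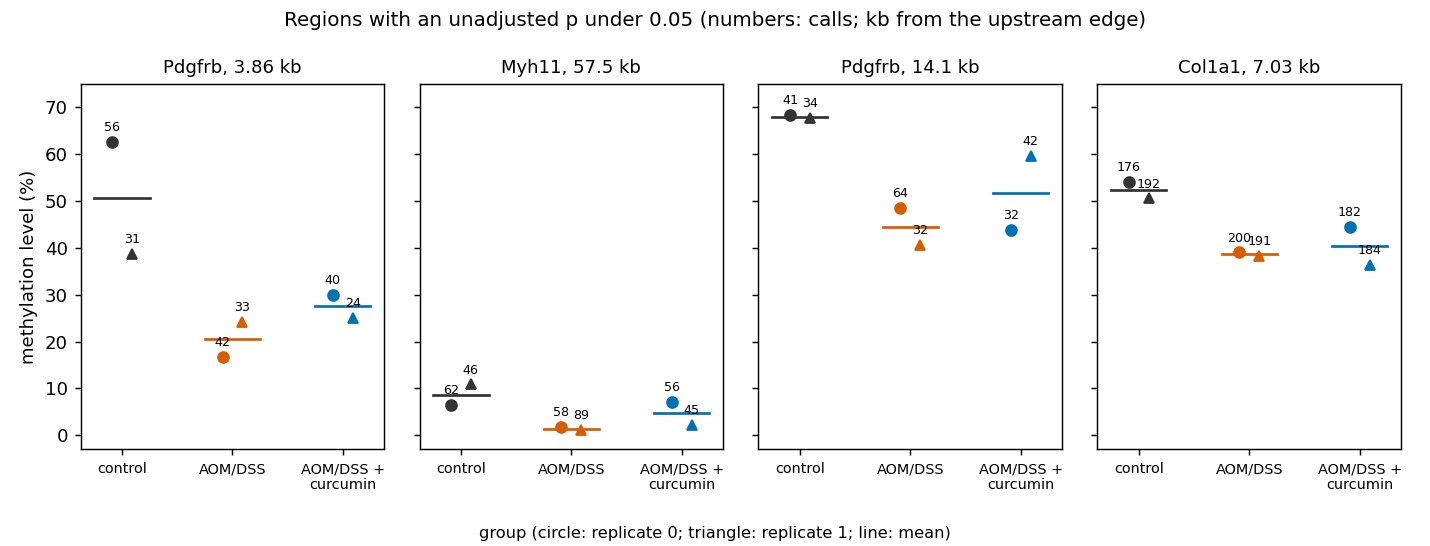
Methylation level (%) in each sample at the 4 regions with an unadjusted p under 0.05 between AOM/DSS and control. Circles are replicate 0, triangles are replicate 1, lines are group means, and the number at each point is its methylation calls. Control lies above AOM/DSS in all 4, and only the Col1a1 region has more than 100 calls in every sample.

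By role, the 25 fibroblast regions averaged 33.8% ± 0.613 (SD, n = 2) in control against 30.7% ± 1.22 after AOM/DSS, so the groups stood -3.09 points apart without overlap, as they also did over all regions at -0.899 points. An alternative chosen after seeing the data left out the 3 regions at least 10 points apart. It gave -0.452 points over the other 22 fibroblast regions and -0.175 points over the other 34 of all members. All 3 were lower in AOM/DSS, so leaving them out had to raise these means, and nothing is concluded from it. The 12 smooth muscle regions averaged 51.6% ± 1.71 and 52.0% ± 1.28, a difference of 0.333 points with overlap. Whether the roles differ was not tested. By window, Col1a1 differed by -3.10 points, Col1a2 by -2.38 and Pdgfrb by -4.83, each with both AOM/DSS samples below both controls, while Acta2 at 0.983, Myh11 at -0.317 and Twist1 at 0.589 points overlapped. An exact two-sided permutation test of 2 against 2 samples cannot go below p = 0.333, and these 3 windows gave that value. Without those 3 regions, a step that had to raise these means too, Pdgfrb stood at 0.657 points and Col1a1 at -1.34 points. When calls were summed over a window instead of averaging its regions, Col1a1 differed by -1.38, Col1a2 by -5.37, Pdgfrb by -1.60 and Myh11 by -6.70 points. By level, the 15 members under 10% differed by -0.0518 points, against 0.417 over all regions of that class, and the 8 members between 70 and 90% by 0.760 points, against -2.57. The 7 members between 30 and 50%, which include the Pdgfrb start region and the Col1a1 region, differed by -6.55 points, against -1.44.

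**Figure D4:**
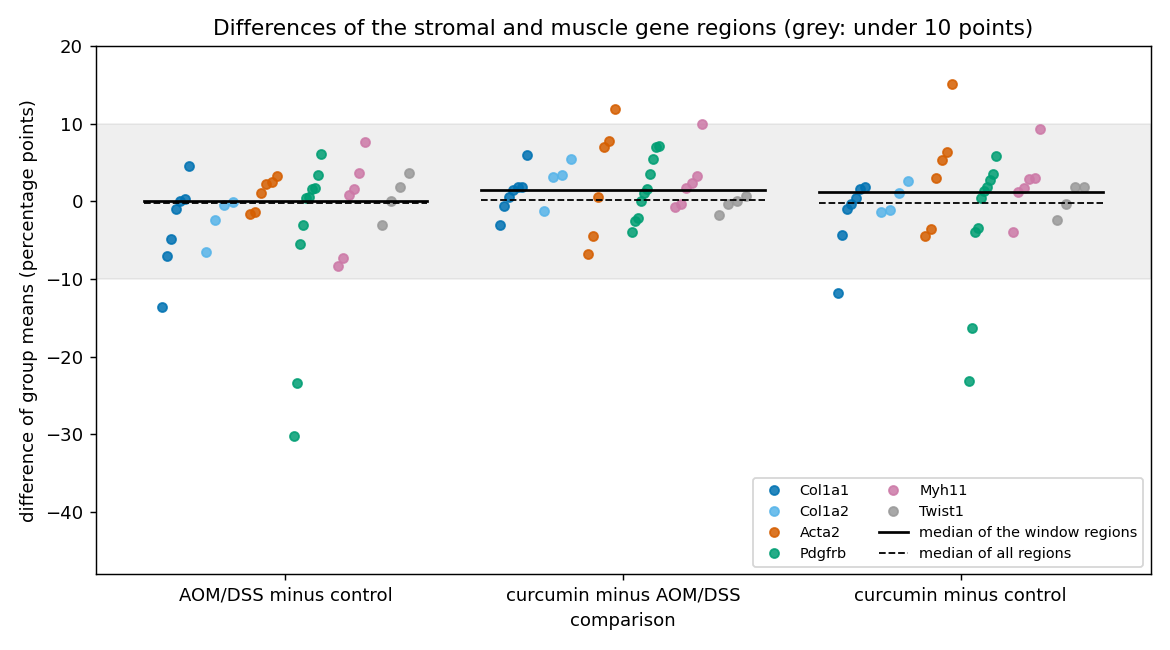
Difference of group mean levels in percentage points for each of the 37 regions, by comparison and gene. The solid line is the median of the 37 regions, the dashed line that of all 179922 regions, and the grey band holds differences under 10 points. Most regions lie in the band, and in both comparisons with control Pdgfrb and Col1a1 regions lie below it.

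Curcumin on top of AOM/DSS was compared with AOM/DSS alone, and no region passed. The test called 0 of 37, as it called 0% of all regions. In edgeR 0 of 37 had an unadjusted p under 0.05, against 5.25% of all regions, or 2.00% with the minimum of 10 points, and limma likewise gave 0 of 37 with that minimum. Of the 37, 25 were higher and 12 lower with curcumin, against 51.9% and 47.7% of all regions. The median difference was 1.43 points against 0.111 over all regions. Groups did not overlap in 8 regions (21.6%), 6 higher and 2 lower, against 34.9% of all regions, 18.9% higher and 16% lower. The smallest unadjusted p belonged to chr11:94811739-94811886 in Col1a1, at 84.1% and 93.2% in AOM/DSS and 90.5% and 98.9% with curcumin, with an unadjusted edgeR p of 0.0731 (adjusted p = 0.944). These groups overlapped, and both controls, at 95.8% and 95.6%, lay between the curcumin samples.

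The smallest p of each other window in this comparison was also far from the threshold. At the start of Acta2, chr19:34330023-34330131 was 11.9 points higher with curcumin, the only member past 10 points (2.70%, against 7.18% of all regions and 4.52% on the higher side), at 85.5% ± 5.04 against 73.6% ± 20.4 (SD, n = 2). Its AOM/DSS samples were 28.9 points apart, the widest gap between replicates at any member. The Myh11 region chr16:14200997-14201158 was 9.996 points higher, from 83.1% and 70% in AOM/DSS to 85.5% and 87.5%. The Pdgfrb region chr18:61225974-61226230 was 3.49 points higher, at 96.6% and 94.9% against 92.9% and 91.7%, and there the curcumin samples lay on both sides of the controls at 95.3% and 95.2%. Col1a2 differed most by p at chr6:4455648-4455889, by 3.10 points with overlap. By window, curcumin was higher without overlap at Col1a1 by 1.15 points and at Col1a2 by 2.68 points. Each stood at the exact permutation test's limit of p = 0.333, and the other 4 windows overlapped. The mean over all regions was likewise higher with curcumin without overlap, by 0.482 points, while that over the 37 members was 1.80 points higher with overlap. At the Pdgfrb start region the curcumin samples lay 7.05 points above AOM/DSS without overlap (adjusted p = 0.976 in edgeR).

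AOM/DSS plus curcumin against control asks what the full treatment left different from control tissue. This comparison shares its controls with the first and its curcumin samples with the second. Again 0 of 37 regions were called, and 0% of all regions. Only the Pdgfrb start region had an unadjusted p under 0.05 with at least 10 points, 1 of 37 (2.70%) against 1.46% of all regions and 0.899% on the lower side. Without the minimum it was again the only one, against 4.17% and 2.34%. It differed from control by -23.1 points, with an unadjusted edgeR p of 0.0325 (adjusted p = 1). Without control replicate 0 the difference was -11.2 points, with an unadjusted edgeR p of 0.430 (adjusted p = 0.983). The same unadjusted criterion was met without either AOM/DSS sample and without control replicate 1, but not without either curcumin sample. Past 10 points stood 3 lower regions and 1 higher region (10.8% together), against 6.15% of all regions, 3.69% lower and 2.47% higher. Col1a1 at 7.03 kb differed by -11.8 points and Pdgfrb at 14.1 kb by -16.3 points, both without overlap (adjusted p = 1 for each in edgeR). In the opposite direction, the region at the start of Acta2 was 15.1 points higher with curcumin than in control (adjusted p = 1 in edgeR), with both curcumin samples above both controls.

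Across the 37 regions, 22 were higher and 15 lower with curcumin than in control, against 46.6% and 52.9% of all regions. The median difference was 1.23 points against -0.168 over all regions. Groups did not overlap in 11 of 37 (29.7%), 7 higher and 4 lower, against 32.0% of all regions, 14.3% higher and 17.7% lower. The mean over all regions lay -0.417 points from control without overlap, and that over the 37 members -0.182 points with overlap. The window means differed without overlap at Col1a1, by -1.95 points, and at Myh11, by 2.36 points. With summed calls these were 1.08 and 0.262 points, so the direction at Col1a1 turned. At Myh11 the lowest p belonged to chr16:14200807-14200890, with 76.1% and 73.8% in control and 72.7% and 95.7% with curcumin. The curcumin samples lay on both sides of the controls there, and the difference of 9.26 points did not pass (adjusted p = 1 in edgeR).

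Depth and replicate spread limit all 3 comparisons. Each sample held between 24682973 and 30727568 calls, and at the 37 regions the median calls per sample were 91 to 112, with a lowest value of 23. Replicates of a group differed at these regions by a mean of 5.28 points in control, 6.27 in AOM/DSS and 4.83 with curcumin, against 4.92, 4.77 and 4.58 over all regions. Data of this depth were simulated with changes only in regions between 30 and 70% methylated, while 15 of the 37 members averaged under 10%. There, differences of 20 points were called in 0 of 100 regions between AOM/DSS and control. The calls were 0 of 200 between curcumin and AOM/DSS, and 0 of 100 between curcumin and control. At 40 points the calls were 11 of 100, 65 of 200 and 0 of 100 in the same order. An unadjusted p under 0.05 was reached by 58%, 64% and 61% of the regions simulated with 20 points. A missing call at the members is therefore no sign that levels were equal.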

How the data were processed

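Colon scrapings were profiled by bisulfite sequencing, which reads unmethylated cytosines as thymine, after capture with the Agilent SureSelectXT Mouse Methyl-Seq kit, per the labels. The submitters' processing notes name Bismark 0.15.0, ChIPseeker 1.10.3, R 3.4.0 and build mm9. Settings, duplicate removal and the drawing of regions: not given in the sources used here. Per region and sample, the deposited counts give the CpGs, the methylation calls and the methylated calls. No deposited value rests on fewer than 20 calls. Calls of one read are not independent, so limits from 0 calls (3 calls over the total) cover counting error only.

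The level is 100 times methylated calls over calls, and group values are means ± SD of 2 samples. Regions needed 10 calls in each of the 6 samples. Methylated and unmethylated counts of all 179922 such regions were fitted with edgeR 4.0.16 in R 4.3.3 (quasi-likelihood, 1 coefficient per sample for coverage and 1 per group for methylation, all 6 samples sharing the spread). Adjusted p-values are Benjamini-Hochberg over all regions. Calls needed an adjusted p under 0.05 and 10 points. Simulations tested the fit. limma 3.58.1 on log2((methylated + 0.5)/(unmethylated + 0.5)), Fisher's exact test and other settings were alternatives. Averages used Python 3.11.15.

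The members, windows and lists were chosen with earlier results of these data known, and the 6 kb limit for regions near a start after their values were seen. Named in each window are the least and most methylated region, the region with the smallest p of each comparison and any region called. Other regions named were chosen after their values were seen. No mm9 annotation was used, so exons and introns are not stated, and further stromal, epithelial and leukocyte genes were not located. Strands of Col1a1, Pdgfrb and Myh11 are from general knowledge, and those of the other genes from RefSeq. Starts in the files may count from 0 or 1.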

Additional observations from a re-analysis of the deposited data

How the results depend on the processing

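Every alternative named here was planned. Of the alternatives run, only Fisher's exact test, which pools the calls of a group and so leaves out replicate variation, called any of the 37 regions. It called 2 between AOM/DSS and control, the Pdgfrb region at 3.86 kb and the Col1a1 region at 7.03 kb, and 0 in the other comparisons. The share of all regions that Fisher's test called is not given here, so the 2 cannot be set against it. At an unadjusted p the count between AOM/DSS and control was 3. In the fits without a sample the regions counted were fewer and not always the same. Without control replicate 0 the 3 regions differed by -18.3, -23.1 and -11.9 points. Col1a1 at 19.7 kb then differed by -11.6 points, against -4.86 with all samples. Without AOM/DSS replicate 1, Col1a1 at 17.7 kb differed by -11.6 points, against -7.04 with all samples. The count between curcumin and AOM/DSS was 0 with all samples and moved in some of those fits. In that comparison Col1a1 at 17.7 kb differed by 6.01 points with all samples. It differed by 10.6 points without AOM/DSS replicate 1 and by 1.82 points without curcumin replicate 1. The count of 1 between curcumin and control moved as well, both up and down. No share over all regions is given here for these fits or the alternatives that follow, so their counts cannot be set against such a share. The count between curcumin and control was 0 with at least 30 calls, which drops the Pdgfrb region, and 0 with limma. It was 2 with only the 4 samples compared and 2 with the replicate block. The cause was not tested for the last 3.

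The median difference between curcumin and AOM/DSS was 0.982 points after subtracting the mean difference of each level class, and 0.179 to 1.79 points without a sample, lowest without curcumin replicate 1 and highest without curcumin replicate 0. Between AOM/DSS and control the median ran from -1.27 points, without AOM/DSS replicate 1, to 0.308 points, without AOM/DSS replicate 0, and was -0.031 points in narrowed windows, against 0.104 as reported. Between curcumin and control it ran from -0.408, without curcumin replicate 1, to 1.07. Of the 18 window differences, 12 moved by more than the replicate SD and 4 changed sign when calls were summed, against 1 and 3 with windows narrowed by 3000 bases, and 0 and 2 after subtracting the class difference. Over the fits without a sample, 12 of 72 changed sign. Replicate numbers did not pair the samples: deviations of same-numbered samples correlated at 0.0548, 0.0121 and 0.00754 over 179922 regions. With the replicate block the unadjusted counts were 3, 0 and 2, and 0 regions were called in each comparison.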
